A study of Mus musculus with 4 samples.

Results

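Histone genes were examined in 4 poly-A RNA libraries from mouse liver tumours, as all genes whose symbol begins with Hist1h to Hist4h, H2af or H3f. The rule found 80 of the 24063 genes in the tables. Of these, 68 were Hist genes, named for the replication-dependent histones of the Hist clusters, and 12 were H2af or H3f genes, named for the replacement variants. All 4 libraries carry the same labels: tumours of mice of strain C57BL/6 (C57BL6/J in the sample titles) with MYC and PMEPA1 overexpression, delivered by hydrodynamic tail vein injection, with no further treatment and 8 to 10 passages. Hydrodynamic injection carries plasmid DNA mainly into hepatocytes, so the host's other liver cells keep their own genotype. The labels name no control, do not say what was passaged, and do not say whether tumours 1, 5, 9 and 10 came from separate animals, so the spread between them may be partly technical. With 1 group, no condition was compared. The mouse genes Myc and Pmepa1 stood between 4.86 and 8.58 and between 0.922 and 7.29 counts per 1000000 (CPM), but the species of the delivered sequences is not stated, so these rows need not hold their reads and do not check the labels. All 12 hepatocyte markers were expressed, Alb at 4520 to 13400 CPM.

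Replication-dependent histone genes supply the proteins that package newly copied DNA, and they are transcribed mainly in S phase. Their mRNAs usually end in a short stem-loop, cut by a dedicated complex with the U7 snRNA and bound by SLBP, and carry no poly-A tail. Replacement variants are made throughout the cell cycle from ordinary polyadenylated mRNAs, and chaperones such as HIRA, DAXX and ATRX place them in chromatin outside replication. Selection for poly-A therefore favours the replacement transcripts and those Hist transcripts that have a tail. The levels below describe only RNA in the selected libraries. These also held reads on genes whose RNA mostly lacks a standard tail, as given further below, but no tail was measured.

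The stem-loop was searched in the part of each GENCODE M21 transcript (GRCm38) that follows the stop codon, as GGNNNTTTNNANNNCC with all 6 bases of the stem paired, on the transcript strand. It was found in 44 of the 67 Hist genes with a coding transcript. In 15 others the annotated transcript was too short to hold it, and in 8 it was not found. Of 11 replacement genes with a coding transcript, 1 held it, H2afx. Among 44271 coding transcripts of other genes with enough bases after the stop codon, 26 held it (0.0587%). The following 5 genes are shown because they were the most abundant with a stem-loop (Hist1h1c, H2afx, Hist1h4i and Hist3h2a) or stand for the linker histones described below (Hist1h1e). Each line gives 26 bases, 5′ to 3′ on the gene's strand, with the 16 bases of the stem-loop in capitals.
Hist1h1c, chr13:23739507-23739532, plus strand: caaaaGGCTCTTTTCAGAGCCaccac
H2afx, chr9:44335235-44335260, plus strand: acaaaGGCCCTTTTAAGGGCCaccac
Hist1h4i, chr13:22040961-22040986, minus strand: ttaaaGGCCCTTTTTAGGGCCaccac
Hist3h2a, chr11:58955167-58955192, plus strand: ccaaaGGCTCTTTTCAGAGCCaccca
Hist1h1e, chr13:23621777-23621802, minus strand: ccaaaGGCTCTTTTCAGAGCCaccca
Over 43 genes, H2afx and all Hist genes with a stem-loop but Hist1h2ap and Hist1h4m, there were 7 distinct stem-loops, and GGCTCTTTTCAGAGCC was the commonest, in 25 genes. The stem-loop began 21 to 58 bases after the stop codon, with a median of 31.

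Replacement variants made up most of the histone reads in every tumour. CPM values are scaled for library composition by TMM. Summed over the 12 genes, replacement variants stood at 1698, 2189, 1916 and 2189 CPM in tumours 1, 5, 9 and 10 (mean 1998 ± 238, SD, n = 4). The 68 Hist genes summed to 274, 330, 298 and 256 CPM in the same order (mean 289 ± 32.0, SD, n = 4). The Hist share of histone CPM was 13.9%, 13.1%, 13.4% and 10.5% (12.7% ± 1.55, SD, n = 4), lowest in tumour 10. Hist transcripts are shorter, with a median of 485 bases against 1827 for the replacement genes, and a longer transcript yields more reads. Per kilobase of transcript, the Hist share was therefore higher, at 27.1%, 25.3%, 28.01% and 21.5% (25.5% ± 2.87, SD, n = 4). All histone genes together took 0.229% ± 0.0281 (SD, n = 4) of the counts.

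**Figure D1:**
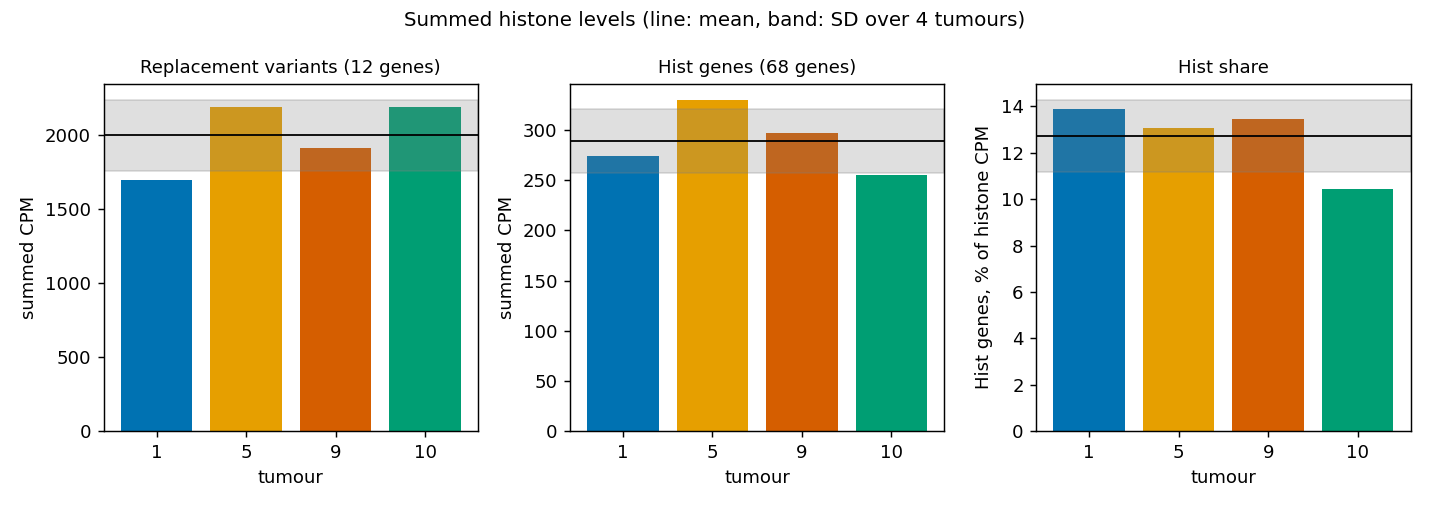
Summed CPM of the 12 replacement genes (left) and the 68 Hist genes (centre), and the Hist share of histone CPM in percent (right), as 1 bar for each tumour, with the mean as a line and the SD over 4 tumours as a band. The replacement sums of 1698 to 2189 CPM lie several times above the Hist sums of 256 to 330 CPM, and the share is lowest in tumour 10.

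The limit for calling a gene expressed was a mean of 1 CPM, which was reached for 13129 genes in all and for 36 of the 80 histone genes, 28 of 68 Hist and 8 of 12 replacement. Since a gene can pass through 1 high tumour, counts over the expressed members do not speak for all members. Just inside the limit were Hist1h2ak at 1.015 and Hist1h4b at 1.017 CPM, and just outside were Hist1h2bj at 0.959 and Hist1h2bk at 0.921 CPM. Reads were seen for nearly every member all the same: 59 Hist genes had at least 3 counts in all 4 tumours, and only H2afb1, H2afb2 and H2afb3 had none in any. A count of 0 allows up to 0.0524, 0.07, 0.0558 and 0.0892 CPM in tumours 1, 5, 9 and 10, for counting error only. The median level of the expressed Hist genes was 3.37 ± 0.748 CPM per kb (SD, n = 4), below the 9.16 ± 0.196 CPM per kb of all expressed genes. For the expressed replacement genes it was 103 ± 17.8 CPM per kb. The difference between the class medians was 4.96, 5.34, 4.51 and 4.86 log2 units in tumours 1, 5, 9 and 10 (4.92 ± 0.341, SD, n = 4), so the order of the classes was the same in each tumour.

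**Figure D2:**
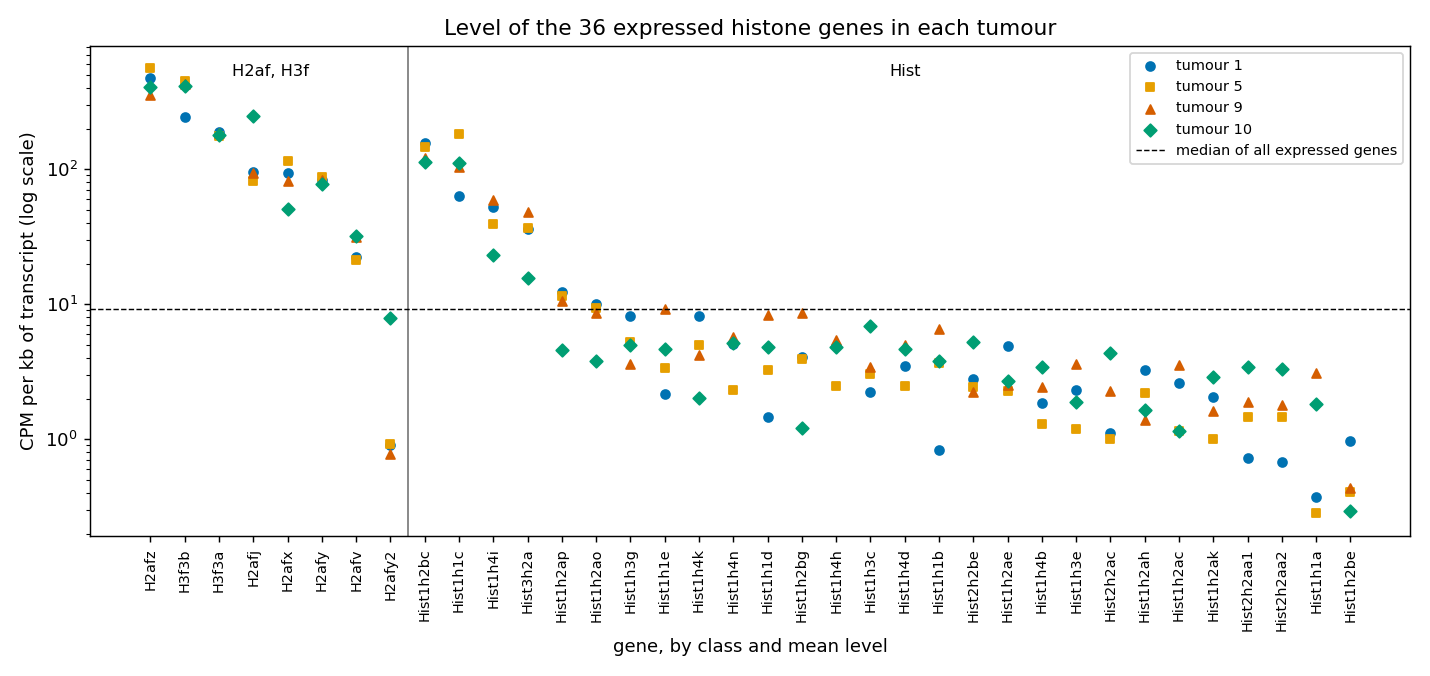
CPM per kb of transcript (log axis) of each of the 36 expressed histone genes, with 1 marker for each tumour, replacement genes left of the vertical line and Hist genes right of it, each sorted by mean level. The dashed line is the median of all expressed genes, 9.16 CPM per kb; 4 Hist genes lie above it in all tumours, and H2afy2 is the only expressed replacement gene below it.

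Per kilobase, the replacement variants H2afz, H3f3b and H3f3a stood highest. H3f3b and H3f3a encode the same protein, histone H3.3, which marks active genes and also fills in nucleosomes at telomeres and repeats. H3f3b was lowest in tumour 1 with 484 CPM, against values of 890.3, 844 and 821 CPM in the tumours 5, 9 and 10. Tumour 1 lay well below the other 3, which were close together. H3f3a stood at 202, 190.0, 199 and 194 CPM (mean 196 ± 5.26, SD, n = 4), the narrowest spread of the expressed histone genes, with a highest to lowest ratio of 1.06. The share of H3.3 mRNA from each of its genes thus differed between tumours.

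H2afz encodes H2A.Z.1, a variant found around transcription start sites. Its level was 508, 598, 376 and 433 CPM in tumours 1, 5, 9 and 10, highest in tumour 5 and lowest in tumour 9. H2afv, for the near-identical H2A.Z.2, was lower and ordered otherwise, at 36.6, 34.8, 51.7 and 52.1 CPM. Per kilobase, H2afz averaged 448 ± 89.9 and H2afv 26.8 ± 5.73 CPM per kb (SD, n = 4).

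H2afx encodes H2A.X, whose phosphorylated form marks DNA breaks. It stood at 127, 155, 110 and 68.7 CPM, lowest in tumour 10, with no other tumour near that value. H2afx is known to give both a short mRNA ending at its stem-loop and a longer polyadenylated mRNA. The annotated transcript of 1384 bases runs 822 bases past the stem-loop shown above, and the counted row has 1359 bases.

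The macroH2A genes encode H2A variants with a large extra domain, often found on silent chromatin. H2afy (macroH2A.1) varied little, at 164, 171, 164 and 151 CPM (mean 163 ± 8.33, SD, n = 4). H2afy2 (macroH2A.2) was near 1.7 CPM in 3 tumours, at 1.73, 1.77 and 1.49 CPM, and reached 15.2 CPM in tumour 10. Their relative H2afy3, a processed pseudogene in GENCODE, was not expressed, with 0.0745 to 0.245 CPM. H2afj, for H2A.J, a variant that differs from canonical H2A mainly at its C-terminus, showed a like pattern at a higher level: 454 CPM in tumour 10, against 175, 148 and 170 CPM in the tumours 1, 5 and 9. In both genes tumour 10 stood apart and the other 3 tumours lay close together.

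The Hist reads came mostly from a few genes. Hist1h2bc, an H2B gene, and Hist1h1c, the gene for linker histone H1.2, together held 58.0%, 72.3%, 54.7% and 64.1% of the Hist CPM (62.3% ± 7.73, SD, n = 4). The 5 highest genes held 77.2% ± 5.17 (SD, n = 4), and the other 63 summed to 65.2 ± 12.7 CPM (SD, n = 4). Hist1h2bc stood at 113, 106, 87.6 and 82.7 CPM in tumours 1, 5, 9 and 10. Hist1h1c stood at 45.6, 132, 75.2 and 81.0 CPM, lowest in tumour 1 and highest in tumour 5. Per kilobase these genes averaged 134 ± 20.0 and 115 ± 49.7 CPM per kb (SD, n = 4), a level within the range of the replacement variants.

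Hist1h4i, an H4 gene, followed at 21.1, 15.9, 23.8 and 9.31 CPM, and Hist3h2a, an H2A gene of the small Hist3 cluster, at 18.3, 18.5, 24.3 and 7.91 CPM. Both were highest in tumour 9 and lowest in tumour 10. Hist2h2be, an H2B gene of the Hist2 cluster, went the other way, with 7.36, 6.40, 5.83 and 13.8 CPM, and its highest value was in tumour 10. Hist1h2ao and Hist1h2ap had the same counts in every library (5.57, 5.16, 4.78 and 2.08 CPM), as did Hist2h3c1 with Hist2h3c2 and Hist1h2bq with Hist1h2br. Reads shared between near-identical copies cannot be assigned to either gene, and 7 Hist genes had counts equal to those of another symbol.

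By family, Hist reads were dominated by H2B and H1. The 19 H2B genes summed to 116 ± 12.3 CPM and the 6 H1 genes to 94.9 ± 37.3 CPM, against 38.1 ± 9.25 for 18 H2A genes, 29.9 ± 8.48 for 13 H4 genes and 10.4 ± 2.499 for 12 H3 genes (SD, n = 4). Hist H3 genes had the lowest sum of the 5 families, and 3 of 12 were expressed. The leading one, Hist1h3g, stood at 4.001, 2.57, 1.77 and 2.44 CPM, and Hist1h3c at 1.08, 1.47, 1.64 and 3.33 CPM. Summed per kilobase, the 2 H3.3 genes stood 16.6, 40.2, 33.2 and 27.99 times above all Hist H3 genes in tumours 1, 5, 9 and 10. The same ratio for the H2A family was 9.05, 11.9, 6.88 and 16.2. Among H4 genes, Hist1h4k stood at 3.34, 2.03, 1.71 and 0.833 CPM, lowest in tumour 10 as for Hist1h4i. The highest genes below the expression limit were Hist1h2bj for H2B (0.234 to 1.69 CPM), Hist1h2ai for H2A (0.654 to 1.34 CPM), Hist1h4a for H4 (0.624 to 1.17 CPM), Hist1h3i for H3 (0.446 to 1.02 CPM) and the testis linker histone gene Hist1h1t for H1 (0 to 0.21 CPM).

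The level of a Hist gene's counted row was set beside how far the gene's GENCODE transcript continues past the stem-loop. Of the 44 genes with a stem-loop, 22 had a transcript running at least 100 bases past it, and 22 ended sooner. With a limit of 50 or 300 bases, both chosen after the data were seen, 25 or 18 were longer. The longer ones summed to 140.52 CPM and the shorter ones to 25.11 CPM, but the medians were close, at 2.19 and 1.76 CPM per kb. The difference in the sums lay in 3 genes: Hist1h1c runs 840 bases past the stem-loop, Hist1h4i 330 and Hist3h2a 1643. The poly-A signal AATAAA stood in the last 40 bases in 9 of the 22 longer transcripts, among them Hist1h1c and Hist3h2a, and in none of the 22 shorter ones. For most shorter ones, these 40 bases reach into the stem-loop. Of the 11 replacement genes with a coding transcript, 4 held AATAAA, and the abundant H3f3b, H2afz and H2afy did not. Its absence therefore does not show that a tail is missing, and no other form of the signal was searched. The counted rows are mostly shorter than these transcripts: in 21 of the 22 genes the row is at least 100 bases shorter than the GENCODE transcript. The row of Hist1h1c has 725 of 1560 bases, that of Hist1h4i 403 of 727 and that of Hist3h2a 508 of 2146. The exception, Hist1h2be, has a row of 2506 bases. The levels therefore do not cover the whole annotated ends, and reads there were not analysed here. Hist1h2ac averaged 2.12 CPM per kb, near the median of the longer ones, on a row of 487 bases with 2010 annotated bases past its stem-loop. Hist1h2ap, which ends 3 bases past its stem-loop, averaged 9.73 CPM per kb, the highest of the shorter ones. Its counts equal those of Hist1h2ao.

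**Figure D3:**
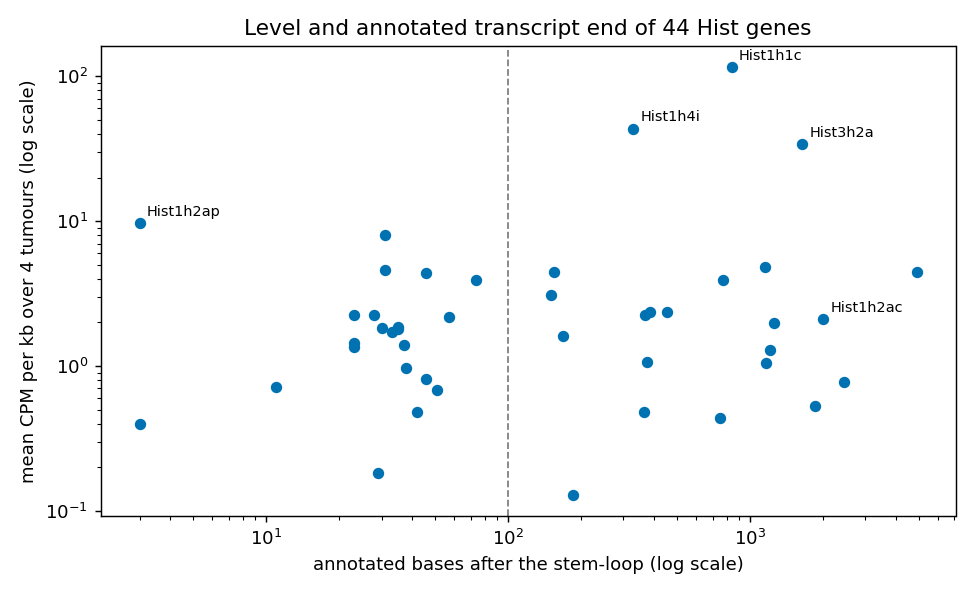
Mean CPM per kb over 4 tumours (log axis) against the annotated bases after the stem-loop (log axis) for the 44 Hist genes with a stem-loop, 1 point for each gene, with a dashed line at 100 bases. Levels come from the counted rows, of which 21 of 22 right of the line are at least 100 bases shorter than the annotated transcript; Hist1h1c, Hist1h4i and Hist3h2a lie at the upper right.

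The most abundant Hist gene, Hist1h2bc, had no stem-loop in its GENCODE transcript, which has 2 exons and ends 742 bases after the stop codon. In the tables it has a row of 728 bases and one of 469 bases. The count of the shorter row was 88.9%, 84.8%, 82.8% and 69.3% of that of the longer row in tumours 1, 5, 9 and 10, lowest in tumour 10. Reads can count on both rows, so these are not shares of isoforms. Hist2h2be likewise had no stem-loop, with 2192 bases after the stop codon and AATAAA in the last 40. For Hist1h2be, with rows of 445 and 2506 bases, the shorter row had 37.4%, 40.9%, 81.4% and 76.0% of the longer row's count, lower in tumours 1 and 5 than in tumours 9 and 10.

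The Hist genes lie in 4 groups: 54 on chromosome 13 between 21715763 and 23934851, 10 on chromosome 3 between 96219865 and 96270132, 3 on chromosome 11 between 58948920 and 58956830, and Hist4h4 alone on chromosome 6. Of these, 23, 4, 1 and 0 were expressed. In 13 places a pair of genes started within 500 bases of each other on opposite strands, and each pair joined an H2A with an H2B gene. In 8 of these pairs both genes had at least 3 counts in every tumour. The higher partner then exceeded the lower by 1.16 to 63.5 times per kilobase, with a median of 1.68, and by over 10 times in 2 pairs. Among the 5 pairs left out for low counts were unequal ones too: Hist1h2ap averaged 9.73 and Hist1h2br 0.00824 CPM per kb, Hist1h2ao 7.97 and Hist1h2bq 0.00824, and Hist1h2aa 0.151 and Hist1h2ba 0.0101. The 2 pairs over 10 times were Hist3h2a with Hist3h2bb-ps, a pseudogene by its name, and Hist1h2bc with Hist1h2ac. The ratio of Hist1h2bc to Hist1h2ac was 59.4, 127, 33.9 and 97.9 per kilobase in tumours 1, 5, 9 and 10, although their starts lie 251 bases apart. Whether counting used strand is not given in the sources used here, so overlapping antisense reads cannot be told apart.

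The region between Hist1h2ac and Hist1h2bc is shown because it serves genes of such unequal level, and the promoters of H3f3b and H2afz because these are the most abundant replacement genes. The sequences are the 250 bases before each gene's start in RefSeq's annotation of GRCm38.p6, 5′ to 3′ on the gene's strand. Capitals mark TATAAA (the TATA box), CCAAT, the octamer ATTTGCAT and the E-box CACGTG, the last being the site that MYC is known to bind, each searched on both strands, so that ATTGG and ATGCAAAT are the CCAAT box and the octamer read on the other strand.
Hist1h2ac, chr13:23683960-23684209, minus strand: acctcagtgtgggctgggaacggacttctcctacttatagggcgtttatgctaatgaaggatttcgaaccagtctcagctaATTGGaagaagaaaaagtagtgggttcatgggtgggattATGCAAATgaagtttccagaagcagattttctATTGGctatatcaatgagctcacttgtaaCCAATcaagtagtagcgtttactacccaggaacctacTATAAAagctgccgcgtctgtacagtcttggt
H3f3b, chr11:116024505-116024754, minus strand: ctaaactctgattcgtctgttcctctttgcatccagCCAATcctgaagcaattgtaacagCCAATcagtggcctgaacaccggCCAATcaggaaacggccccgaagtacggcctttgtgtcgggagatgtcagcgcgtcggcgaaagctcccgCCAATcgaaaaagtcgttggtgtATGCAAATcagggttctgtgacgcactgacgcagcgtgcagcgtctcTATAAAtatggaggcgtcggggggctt
H2afz, chr3:137864237-137864486, plus strand: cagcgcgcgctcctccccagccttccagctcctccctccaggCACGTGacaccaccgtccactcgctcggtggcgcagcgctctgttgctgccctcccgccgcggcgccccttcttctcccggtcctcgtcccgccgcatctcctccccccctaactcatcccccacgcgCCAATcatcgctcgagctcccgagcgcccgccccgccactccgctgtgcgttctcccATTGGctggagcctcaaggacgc
The table gave a promoter for 62 Hist and 10 replacement genes, and the search used 300 bases, from 250 before to 50 after the start. For H2afb1 the matched entry lies on chromosome 2 under the name H2al2a, whereas GENCODE places H2afb1 on chromosome X. This entry may thus belong to another gene. It held none of the motifs and is counted among the 10. The TATA box stood in 56.5% of the Hist and 10.0% of the replacement promoters, against 13.6% of all 32851 promoters of this length. The CCAAT box stood in 85.5% and 80.0%, against 37.4% of all. Every H1, H2A, H2B and H3 promoter in the table held a CCAAT box, and 3 of the 12 H4 promoters did. The octamer, known from H2B promoters, stood in 43.8% of H2B and 38.9% of H2A promoters and in none of H1, H3 or H4, against 1.74% of all. Many paired H2A and H2B genes share much of their windows. With both strands searched, the same octamer or CCAAT site can count in both families, so their shares are not separate counts. Of the 10 replacement genes in the table only H3f3b held the octamer, and it was also the only one with a TATA box. The E-box stood in no Hist promoter and in 1 replacement promoter, that of H2afz, against 7.15% of all. A match describes letters in the window and shows no binding.

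Of the 6 Hist genes for linker histone H1, 4 were highest in tumour 9, where 21.6% of all expressed genes were. Hist1h1e (H1.4) stood at 1.70, 2.62, 7.26 and 3.63 CPM in tumours 1, 5, 9 and 10. Hist1h1d (H1.3) stood at 1.14, 2.52, 6.48 and 3.75 CPM. Hist1h1b (H1.5) stood at 0.664, 2.92, 5.19 and 3.03 CPM, and Hist1h1a (H1.1) at 0.280, 0.210, 2.29 and 1.37 CPM. Of these 4 genes, 3 were lowest in tumour 1 and Hist1h1a was lowest in tumour 5. The others were Hist1h1c, highest in tumour 5, and Hist1h1t, which was not expressed and had no counts in tumour 9. Hist1h1a, Hist1h1b and Hist1h1d were also among the 4 expressed Hist genes whose log2 CPM had an SD of at least 1, with Hist1h2bg, an H2B gene that reached 4.002 CPM in tumour 9 and lay between 0.565 and 1.89 CPM elsewhere. The most variable of the expressed Hist H2A genes, Hist2h2ac, was highest in tumour 10 instead, at 0.524, 0.467, 1.06 and 2.02 CPM. None of these genes passed the test of tumour 9 against the other 3. In tumour 9, most erythroid, neutrophil and macrophage markers were also at their highest. These were 12 of 13 expressed erythroid, all 12 neutrophil and 9 of 11 macrophage markers, against 21.6% of all expressed genes. Summed CPM of erythroid markers was 1366, against 564.5 to 1031 in the other tumours. It was 689.6 against 25.8 to 113 for neutrophil markers and 1211 against 280 to 525 for macrophage markers. The erythroid exception, Tfrc, was the most abundant of its list and lowest in tumour 9. It stood at 449.7, 720.4, 224.0 and 903.6 CPM in tumours 1, 5, 9 and 10, and weighs heavily in the erythroid sum. No marker of these lists was at 0 in all tumours, and their part in the linker histone values was not tested. In such bulk tissue, fewer cells of a type and less RNA per cell cannot be told apart.

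**Figure D4:**
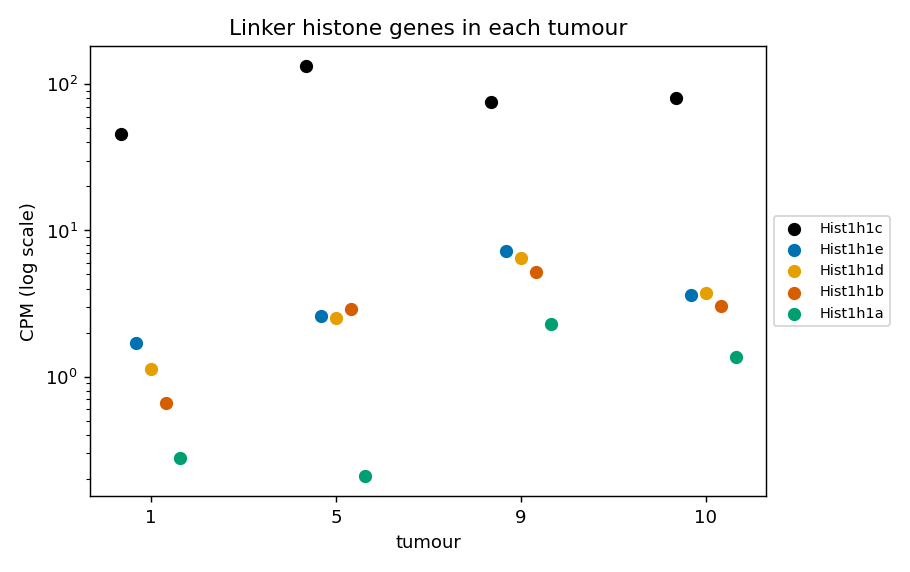
CPM (log axis) of the 5 expressed Hist genes for linker histones in each tumour, 1 point for each gene and tumour. Hist1h1e, Hist1h1d, Hist1h1b and Hist1h1a are all highest in tumour 9, whereas Hist1h1c lies far above them in every tumour and is highest in tumour 5.

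Differences between tumours exceeded counting noise for nearly all genes, so this says little about histones. By a Poisson heterogeneity test over the 4 tumours, adjusted by Benjamini-Hochberg over all expressed genes, 98.7% of 13129 genes varied beyond noise, and so did all 36 histone genes. With 5% technical variation allowed for, 94.1% of all genes and 34 of the 36 histone genes did. The remaining 2 were H3f3a (adjusted p = 0.842) and H2afy (adjusted p = 0.404) in this Poisson test, the steadiest of the expressed histone genes. The median SD of log2 CPM over the tumours was 0.65 for the expressed Hist genes, 0.36 for the replacement genes and 0.45 for all expressed genes. These SDs were not matched for level. Most expressed Hist genes had low counts, where counting error adds to the SD, and the expression limit admits genes through 1 high tumour. An SD of at least 1 was seen in 4 Hist genes and 1 replacement gene, and in 16.6% of all expressed genes.

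Each tumour was compared with the other 3 by edgeR's quasi-likelihood test, with p-values adjusted over all genes and all 4 tumours, where the lone tumour is assumed to vary like the rest. No gene passed in any tumour (0.0% of 13129), histone genes included. At an unadjusted p under 0.05 stood 0.716%, 0.922%, 5.66% and 22.1% of all genes for tumours 1, 5, 9 and 10, and 0, 0, 0 and 5 of the 36 histone genes. DESeq2 called 29, 47, 331 and 1371 genes in these tumours (0.221%, 0.358%, 2.52% and 10.4%), among them 2 histone genes, H2afj and H2afy2 in tumour 10. Limma-voom called none.

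The 5 histone genes with an unadjusted p under 0.05 were thus all in tumour 10, where the share among all genes was 22.1%. H2afj was higher there by 1.47 log2 units (SE 0.23, edgeR adjusted p = 0.197; DESeq2 adjusted p = 3.16e-05). For H2afy2 the difference was 3.19 log2 units (SE 0.506, edgeR adjusted p = 0.201; DESeq2 adjusted p = 8.09e-05). Lower in tumour 10, short of the adjusted threshold, were Hist3h2a (-1.36 log2 units, edgeR adjusted p = 0.484), H2afx (-0.93, adjusted p = 0.547) and Hist1h4i (-1.12, adjusted p = 0.644). Of the 12 hepatocyte markers, 10 were at their highest in tumour 10, against 35.8% of all expressed genes. Their summed CPM was 39200 there, against 13280 to 19260 in the other tumours. All 10 markers of stellate cells and fibroblasts were at their lowest there (113.5 against 296.5 to 521.5 CPM). So were 22 of 24 G2 and M phase genes (1460 against 2203 to 2982 CPM). Of all expressed genes, 32.4% were lowest in tumour 10. Short transcripts were higher in it as well: the shortest of 10 length classes of expressed genes, which holds 26 of the 28 expressed Hist genes, had a median deviation of 0.31 log2 units there. The part of these differences in the histone values was not tested.

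Taking each gene's log2 CPM minus its 4-tumour mean, the median over the expressed Hist genes was 0.18, -0.21, 0.21 and 0.10 in tumours 1, 5, 9 and 10. For the replacement genes it was -0.11, 0.01, 0.01 and 0.07, and for all expressed genes -0.01, 0.00, -0.04 and 0.02. These Hist medians turned sign under other settings: to -0.06 in tumour 1 without tumour 5, to 0.13 in tumour 5 and -0.05 in tumour 9 with a limit of 5 CPM, which leaves 5 Hist genes, and to -0.22 in tumour 10 within the same length class of genes. Of the 28 expressed Hist genes, 12 (42.9%) were highest in tumour 9, where 21.6% of all expressed genes were, and 1 (3.57%) in tumour 5, against 21.2%. Tumour 1 held 8 of the highest values (28.6%, against 21.4%) and tumour 10 held 7, where the share of all genes was 35.8%. Lowest values were most frequent in tumour 5, in 10 of 28, where 20.3% of all genes were lowest. Such counts depend on the limit of 1 CPM, which a gene can pass through 1 high tumour. Without tumour 1, 5, 9 or 10, the number of Hist genes reaching that limit was 26, 32, 24 and 22. The 8 replacement genes were highest in tumours 1, 5, 9 and 10 in 1, 4, 0 and 3 cases. Tumour 5 thus had the highest Hist sum, through Hist1h1c, while most other Hist genes were not high in it. Without Hist1h2bc and Hist1h1c the Hist sum was 115, 91.4, 135 and 91.8 CPM, highest in tumour 9.

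**Figure D5:**
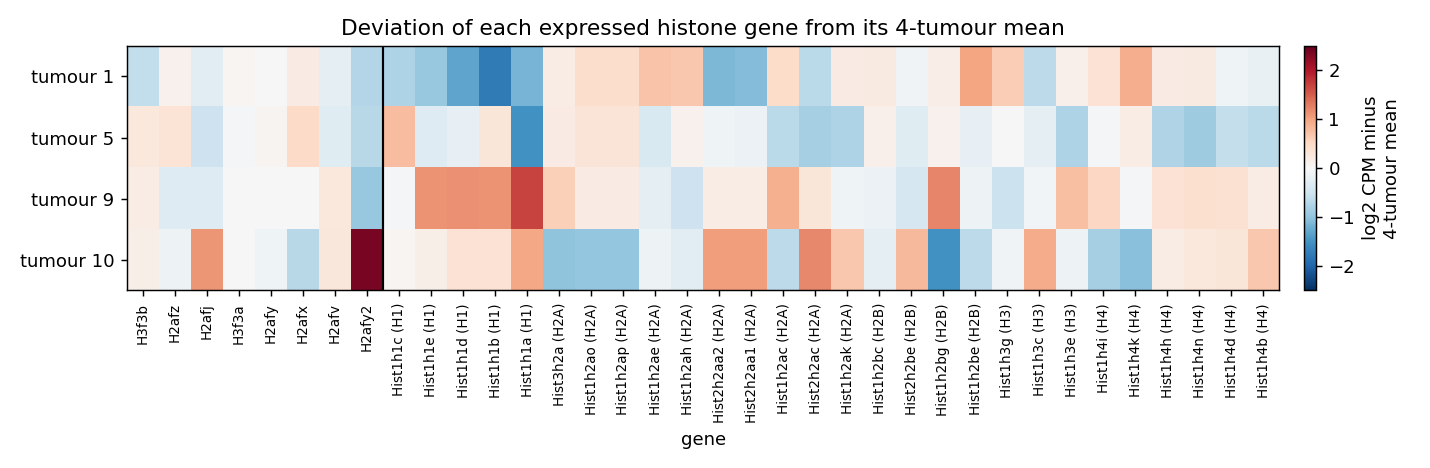
Log2 CPM of each of the 36 expressed histone genes minus its mean over the 4 tumours, in colour from blue (lower) to red (higher), with tumours as rows and replacement genes left of the black line. H2afy2 and H2afj are high in tumour 10, and the linker histone genes Hist1h1e, Hist1h1d, Hist1h1b and Hist1h1a are high in tumour 9.

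Genes that process and load histones were described from fixed lists. Of 30 entries on histone pre-mRNA processing, 28 had a row and were expressed, and none was called in any tumour by edgeR. Their summed CPM was 2791, 2706, 2201 and 2342 in tumours 1, 5, 9 and 10, and 14 of 28 were highest in tumour 1, where 21.4% of all expressed genes were. Slbp, for the stem-loop binding protein, stood at 43.1, 42.6, 50.4 and 31.2 CPM. The U7 snRNP genes Lsm10 and Lsm11 stood at 11.7, 9.60, 5.57 and 11.4 CPM and at 26.4, 20.6, 15.3 and 21.2 CPM, lowest in tumour 9 for both. Npat, a coactivator of Hist genes, stood at 25.4, 34.8, 29.7 and 19.2 CPM, and Casp8ap2, another factor of the histone locus, at 21.9, 20.3, 15.8 and 8.15 CPM. The 3 genes Slbp, Npat and Casp8ap2 were all lowest in tumour 10, where 32.4% of all expressed genes were lowest.

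Of 39 histone chaperones and loading factors 38 were expressed, with none called by edgeR, as for all genes, and 19 lowest in tumour 10 (against 32.4% of all expressed genes). Hira, the H3.3 chaperone for active genes, stood at 77.7, 95.1, 73.9 and 88.8 CPM. Daxx and Atrx, the pair that places H3.3 at repeats, stood at 42.9, 36.4, 40.1 and 31.1 CPM and at 126, 152, 102 and 76.1 CPM. Chaf1a, of the complex that loads replication-dependent H3 on new DNA, stood at 70.5, 70.2, 40.4 and 49.98 CPM. All 40 DNA replication and S phase genes were expressed, and 25 of them were highest in tumour 5, against 21.2% of all genes, with a summed CPM of 2993, 3482, 2669 and 2579. Tumour 5 was the one with 1 of 28 expressed Hist genes at its highest, but it also had the highest Hist sum, 330 CPM. Of the 40 S phase genes, 23 were lowest in tumour 10. Another 5 were highest in tumour 10, among them Pcna, the most abundant of the list, at 283.5 CPM. A link between S phase genes and Hist levels was not tested. Of 11 further histone entries 3 were expressed. H1f0, the linker histone of differentiated cells, stood at 232, 379, 235 and 225 CPM, and was highest in tumour 5 as was Hist1h1c. Cenpa, the centromeric H3 variant, stood at 74.6, 81.0, 77.8 and 38.8 CPM.

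A list of RNAs, most of which lack a standard poly-A tail, was also examined in these libraries. Of 32 entries 19 had a row and 7 were expressed. The 19 summed to 9657, 10320, 16150 and 12820 CPM in tumours 1, 5, 9 and 10. Most of this was Rn45s, the ribosomal RNA precursor, at 8662, 9543, 15120 and 10790 CPM, highest in tumour 9. Neat1, the next most abundant, stood at 613, 238, 592 and 1241 CPM, highest in tumour 10. The 7 expressed entries were highest in tumours 1, 5, 9 and 10 in 1, 1, 2 and 3 cases. Rnu7, the U7 snRNA gene itself, had no counts in any tumour. Whether untailed RNA contributed to the Hist counts was not tested.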

How the data were processed

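RNA was extracted with Trizol, treated with DNase I, selected for poly-A and made into TruSeq libraries, per the labels' protocols. FastQC 0.11.8 and GRCm38 stand in the submitters' processing notes. Not given in the sources used here: the aligner, the counting program and the strand setting. The deposited counts are whole reads for each of 33984 transcript rows. The deposited FPKM, so named per the file headers, equalled counts over the file's total and a whole transcript length, and gave those lengths. The deposited TPM, so named per the file headers, summed to 1000000 and was not used further. Reads were counted on several rows of a gene, so the row with the highest mean count stood for each gene. Gene totals were 51939623, 41547938, 48931408 and 41948878 counts in tumours 1, 5, 9 and 10.

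Tests used R 4.3.3, edgeR 4.0.16 (TMM, robust quasi-likelihood), DESeq2 1.42.0 and limma 3.58.1. The edgeR and Poisson tests were also run on simulated counts, but DESeq2 and limma were not. Log2 CPM adds a prior count of 2, and adjusted p under 0.05 was called. TMM factors were 1.102, 1.031, 1.098 and 0.802. Scaling by total counts alone would shift all genes by 0.14, 0.04, 0.13 and -0.32 log2 units. The members and lists were chosen with earlier results of these data known. By rule, the text names every expressed replacement gene, the 12 highest expressed Hist genes, the 2 highest, the most variable and the highest unexpressed gene of each Hist family, and 12 further genes of histone supply whatever their values. Of the lists' highest and most variable members, others are not named here. Hist1h2ac, Hist1h2ak, Hist1h4b, Hist1h2bk, Hist1h2be, Hist1h2aa, Hist1h2ba, Hist1h2bq, Hist1h2br, Hist1h4m, Hist2h3c1, Hist2h3c2, Hist3h2bb-ps, Hist4h4, H2afy3, H2afb1 to H2afb3, Rnu7, Myc and Pmepa1 were named after their values were seen.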

Additional observations from a re-analysis of the deposited data

Results flagged for a closer look

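Of 67 quantities examined in the 4 tumours, 4 had 1 tumour far from the other 3, by a gap over Dixon's 95% critical share of the whole range. Chance flags about 1 group in 20, and 4 of 67 is near that rate. The rate over all expressed genes was not computed. H2afj stood at 454.0 CPM in tumour 10 and between 148.3 and 174.5 CPM in the others, a gap of 0.914 of the range. H2afy2 stood at 15.16 CPM in tumour 10 and between 1.489 and 1.774 CPM in the others (0.979). H3f3b stood at 483.8 CPM in tumour 1 and between 821.0 and 890.3 CPM in the others (0.83). The summed CPM of the H3.3 genes, which H3f3b dominates, was 685.7 in tumour 1 and between 1015 and 1080 in the others (0.835).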

How the results depend on the processing

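Of 383 values under alternative settings, 48 moved by more than the spread between tumours, or by over 1.5 times for counts, and 335 did not. Summing over transcript rows lowered the Hist sum to 256.4 and the replacement sum to 1695 CPM, and moved 11 of the 174 recomputed levels of 29 named genes. The difference between class medians was 4.435 to 4.869 log2 units when 1 tumour was left out, lowest without tumour 10. Of 88 median deviations, 68 kept their sign and 20 did not. With total counts, Hist genes stood at 0.42 in tumour 9 and -0.41 in tumour 10, and replacement genes at 0.03, 0.14 and -0.25 in tumours 1, 9 and 10. With a limit of 0.1 CPM, Hist genes stood at -0.13 in tumour 10, and replacement genes at 0.02 and -0.02 in tumours 1 and 10. With a limit of 5 CPM, Hist genes stood at 0.13, -0.05 and -0.22 in tumours 5, 9 and 10. Within length classes, Hist genes stood at 0.37 and -0.22 in tumours 1 and 10, and replacement genes at 0.08 and -0.07 in tumours 9 and 10. With 1 tumour left out, Hist medians ranged from -0.06 to 0.26, -0.45 to -0.05, 0.13 to 0.35 and -0.06 to 0.17 in tumours 1, 5, 9 and 10, and replacement medians from -0.15 to 0.01 in tumour 1 and -0.03 to 0.10 in tumour 10.

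With no limit on low counts, 65 histone genes varied beyond counting noise, since more genes were tested. By edgeR, 2, 6 and 123 genes were then called in tumours 1, 9 and 10. DESeq2 called 29, 47, 331 and 1371 in tumours 1, 5, 9 and 10, with 2 histone genes, both in tumour 10. Adjusting for each tumour alone gave 230 genes in tumour 10. With 1 tumour left out, edgeR called 0 to 2, 0 to 1, 0 to 28 and 0 to 411 genes in tumours 1, 5, 9 and 10. The highest was without tumour 9 for tumour 10 (411) and tumour 5 (1), and without tumour 10 for tumour 9 (28), and no histone gene was among them. Apart from what each setting changes by construction, the cause was not tested. No paired analysis was possible because there is 1 group.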
